A study of Rattus norvegicus with 9 samples.

Results

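Immediate early genes (IEGs) are genes that cells transcribe within minutes of a stimulus without first making new protein. A set of 10 was followed in the vestibular epithelium of the rat: the FOS family members Fos, Fosb and Fosl2, the JUN family members Jun, Junb and Jund, and Egr1, Ier2, Nr4a1 and Dusp1. They were chosen by name from known biology, with earlier results of these data already known, and were found by matching their symbols to the deposited table. All 10 were among its 32883 genes, and 9 of them (Fosl2 was the exception) were among the 15517 genes with enough counts to be tested. Male Long-Evans rats drank water with 20 mM 3,3′-iminodipropionitrile (IDPN), a nitrile that damages the hair cells (HCs) of the vestibular system, for 3 weeks (IDPN-3wk) or 7 weeks (IDPN-7wk), and control rats drank plain water. Per the study's methods, the same controls were used for both times of exposure, some of them collected at the earlier and some at the later one. The labels do not say which control was collected when. The age of these rats at the start is not given in the sources used here. Each library came from the 2 utricles and 6 cristae of 1 rat, pooled, with 3 rats per group and a shared batch label for the 9 libraries. The sample titles begin with codes whose meaning is not given in the sources used here. All 3 controls share a code that no exposed rat has, IDPN-3wk rats 2 and 3 share another, IDPN-7wk rats 2 and 3 a further one, and rat 1 of each IDPN group a last one. What the codes mark and exposure therefore cannot be told apart in the comparisons with controls. Tissue was taken on ice after decapitation. How long each dissection took is not given in the sources used here, and because IEG transcripts can also rise with handling and dissection, the value of every rat is shown.

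FOS and JUN proteins bind each other through leucine zippers to form the dimeric transcription factor AP-1, in which JUN proteins can pair among themselves and FOS proteins need a JUN partner. The genes are switched on by mitogen-activated protein kinase (MAPK) and calcium signalling acting on factors already present in the cell, such as SRF with its ELK partners at CArG boxes and CREB at cAMP response elements (CREs). Their messenger RNAs decay quickly, and some of their products, DUSP1 among them, act as feedback that ends the signal.

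The sequences upstream of these genes show how unevenly such elements are placed among them. RefSeq promoters (build GRCr8, the 250 bases before the start of transcription) were matched by symbol for 8 of the 10 genes, all but Fos and Jun. The full CRE, TGACGTCA, which reads the same on both strands, was found in 3 of these 8, Jund, Ier2 and Dusp1, and in 1.7% of 27457 rat promoters of the same length. The core TGACG, searched on both strands and contained in each full CRE on either strand, was found in 6 of the 8, Junb, Jund, Egr1, Ier2, Nr4a1 and Dusp1, and in 19% of all promoters. A CArG box was found in 1 of the 8, Egr1, which held 2, and in 1.5% of all promoters. The remaining motifs were also read on either strand. The EGR site GCGNGGGCG was present in Fosl2, Jund and Nr4a1 (4.53% of all promoters) and the sequence TATAAA in Fosb and Junb (13.1%). The AP-1 site TGACTCA was in 0 of the 8 and in 3.98% of all. Below, capitals mark these matches in the member with a matched promoter whose transcript rose, Junb, and in 2 members that hold a full CRE, Ier2 and Dusp1.
Junb, chr19:40080876-40081125, plus strand: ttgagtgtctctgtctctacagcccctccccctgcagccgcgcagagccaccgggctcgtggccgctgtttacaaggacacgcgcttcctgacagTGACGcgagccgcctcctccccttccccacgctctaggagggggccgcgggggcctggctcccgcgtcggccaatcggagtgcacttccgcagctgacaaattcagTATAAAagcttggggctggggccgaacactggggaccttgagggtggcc
Ier2, chr19:40399123-40399372, plus strand: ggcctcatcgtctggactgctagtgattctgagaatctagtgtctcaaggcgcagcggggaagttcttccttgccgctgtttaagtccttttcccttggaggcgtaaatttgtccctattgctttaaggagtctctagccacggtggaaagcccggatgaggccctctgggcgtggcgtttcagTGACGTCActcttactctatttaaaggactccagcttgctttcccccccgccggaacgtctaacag
Dusp1, chr10:17184603-17184852, plus strand: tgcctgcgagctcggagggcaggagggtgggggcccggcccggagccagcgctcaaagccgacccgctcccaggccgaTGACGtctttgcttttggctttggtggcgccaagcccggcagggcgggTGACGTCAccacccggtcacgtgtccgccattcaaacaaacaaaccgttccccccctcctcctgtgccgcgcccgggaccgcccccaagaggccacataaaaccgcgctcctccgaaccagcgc
In Junb the core began 155 bases before the start and TATAAA 49 bases before it. The full CRE began 66 bases before the start in Ier2 and 124 bases before it in Dusp1. Matched letters describe the sequence only, and binding was not measured.

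Libraries were made by SMARTseq2, a protocol that copies polyadenylated RNA from small inputs into full-length cDNA and amplifies it. Totals ran from 31100118 to 46018385 counts. Levels are given in CPM, counts scaled for library size, after normalization by the trimmed mean of M values (TMM), and 3 counts corresponded to between 0.0611 and 0.101 CPM. CPM are not divided by gene length, so levels are compared between rats and not between genes. At equal depth, 3 libraries (Control rat 3 and IDPN-3wk rats 1 and 2) had 15387 to 15498 genes detected and the other 6 had 16834 to 17312. No IDPN-7wk library was in the first set. HC markers and supporting cell markers were present in all 9 libraries, and none of the markers examined was at 0 in all of them. The counts came from whole tissue, in which fewer cells of a type and less RNA per cell cannot be told apart.

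After 7 weeks, the later stage of exposure, Fos and Junb rose against control rats and none of the other 7 genes tested passed the thresholds. A gene was called when its adjusted p (edgeR's quasi-likelihood test, Benjamini-Hochberg over all 15517 genes) was under 0.05 and its fold change above 1.5. By this rule 2 of 9 members were called, both higher, against 5.13% of all genes called and 2.00% called higher. After 3 weeks 0 of 9 were called, against 1.65% of all genes. In that comparison 2 members, Fos and Fosb, had an unadjusted p under 0.05 (15.8% of all genes did). DESeq2, the tool used in the study, called 1 of 10 after 3 weeks (Fos) and 4 of 9 after 7 weeks (Fos, Jun, Junb and Egr1, all higher), against 5.04% and 8.81% of the genes it tested (3.48% called higher at 7 weeks). The median log2 fold change of the 9 members was -0.11 after 3 weeks and 0.65 after 7 weeks, beside medians of -0.00047 and 0.01 over all genes tested.

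Fos (ENSRNOG00000008015) encodes the FOS protein, the best known partner of JUN in AP-1. Its level was 5.34, 7.24 and 3.49 CPM in control rats 1, 2 and 3, which corresponds to 198, 231 and 124 counts. It was 11.0, 14.6 and 9.81 CPM in the IDPN-3wk rats and 38.9, 19.6 and 22.9 CPM in the IDPN-7wk rats. The 3 groups did not overlap, and every rat exposed for longer was above every rat exposed for a shorter time or not at all. The means were 5.36 ± 1.87, 11.8 ± 2.51 and 27.1 ± 10.3 CPM (SD, n = 3). Between IDPN-7wk and control rats Fos rose 5.07-fold (95% interval 2.97 to 8.67; log2 fold change 2.34, SE 0.347, adjusted p = 0.00373). The difference between IDPN-3wk and control rats was 1.14 on the log2 scale (95% interval 0.39 to 1.89) with an unadjusted p of 0.00703, and it did not pass the adjusted threshold in edgeR (adjusted p = 0.131) but did in DESeq2 (adjusted p = 0.0228). The difference between IDPN-7wk and IDPN-3wk rats was 1.20 (95% interval 0.46 to 1.95), again past the threshold in DESeq2 (adjusted p = 0.0196) and not in edgeR (adjusted p = 0.167).

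The Fos result at 7 weeks did not depend on a single rat. With each of the 9 libraries left out in turn, the log2 fold change against control rats stayed between 1.99 and 2.62 and the adjusted p (edgeR) between 0.00454 and 0.0221. The lowest value, 1.99, was the one without IDPN-7wk rat 1. On the log2(CPM + 2) scale, the difference from control rats was 1.96 over all libraries and 1.77 within the 6 libraries with more genes detected. After 3 weeks the difference was 0.92 over all libraries, 1.42 within the set with fewer genes detected (1 control against 2 exposed rats) and 0.52 within the other set (2 controls against 1 exposed rat), so that the direction was shared and the size was not.

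Fosb (ENSRNOG00000046667), whose product also pairs with JUN proteins, was near the limit of detection. It had 5, 8 and 0 counts in control rats, 20, 54 and 26 in IDPN-3wk rats and 20, 22 and 20 in IDPN-7wk rats. In CPM, the controls were at 0.135, 0.251 and 0, the IDPN-3wk rats at 0.545, 1.82 and 0.799, and the IDPN-7wk rats at 0.407, 0.452 and 0.506. All exposed rats were above all controls, and here the IDPN-3wk rats were the highest. The log2 fold change against control rats was 3.01 after 3 weeks (95% interval 0.34 to 5.68, adjusted p = 0.259) and 1.81 after 7 weeks (95% interval -0.77 to 4.39, adjusted p = 0.461), and neither passed the test. Both intervals are wide, and depth limits what can be said of this gene. Fosl2 (ENSRNOG00000052357), a further FOS family member that lacks the transactivation domain of FOS, had at most 14 counts in any rat. Its counts were 0, 3 and 9 in control rats, 13, 2 and 0 in IDPN-3wk rats and 2, 14 and 4 in IDPN-7wk rats. The groups overlapped, and a difference was not detectable at this depth.

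**Figure D1:**
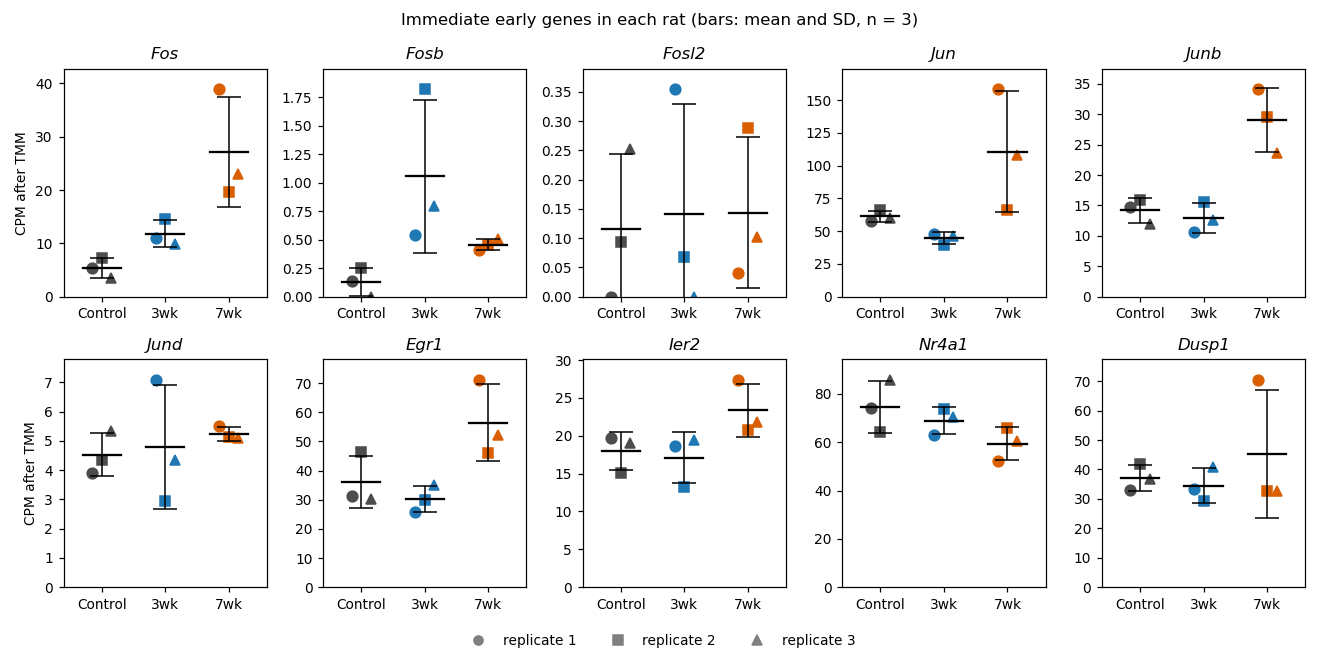
Level of each of the 10 immediate early genes in each rat, in CPM after TMM (vertical axes start at 0 and differ between panels), for Control, IDPN-3wk and IDPN-7wk rats. Points are single rats with the shape giving the replicate, and bars are the mean and SD of 3 rats (drawn down to 0 where the SD exceeds the mean). The 3 IDPN-7wk rats lie above all controls for Fos (19.6 to 38.9 against 3.49 to 7.24 CPM) and Junb (23.6 to 34.1 against 12.0 to 16.0 CPM). IDPN-7wk rat 1 is the highest of its group for Jun (158.3 CPM, against 66.4 and 107.8) and far above the others for Dusp1 (70.5 CPM, against 32.8 and 32.7).

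Jun (ENSRNOG00000026293) encodes the AP-1 subunit that is activated by JNK. Control rats had 57.9, 66.0 and 60.0 CPM, IDPN-3wk rats 48.2, 39.4 and 46.1 CPM and IDPN-7wk rats 158.3, 66.4 and 107.8 CPM. All 3 IDPN-3wk rats were below all controls. All 3 IDPN-7wk rats were above them, although IDPN-7wk rat 2 exceeded the highest control only narrowly, at 66.4 against 66.0 CPM. The log2 fold change was -0.46 after 3 weeks (95% interval -1.02 to 0.10, adjusted p = 0.417) and 0.86 after 7 weeks (95% interval 0.29 to 1.42, adjusted p = 0.0834). Tested directly, IDPN-7wk rats exceeded IDPN-3wk rats by 1.32 (SE 0.255, 95% interval 0.75 to 1.88), with an unadjusted p of 0.000418 and an adjusted p of 0.0627 in edgeR. DESeq2 called Jun higher in IDPN-7wk rats than in control rats (adjusted p = 0.0138) and than in IDPN-3wk rats (adjusted p = 9.67e-05). In edgeR the 7-week difference from control rats was called without IDPN-7wk rat 2 (log2 fold change 1.12, adjusted p = 0.0105) and was 0.51 without IDPN-7wk rat 1 (adjusted p = 0.301). The difference between IDPN-7wk and IDPN-3wk rats was likewise called without IDPN-7wk rat 2 (1.58, adjusted p = 0.00865). Without IDPN-7wk rat 1 this difference was 0.97, and with 1 library left out its adjusted p in edgeR reached 0.193.

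Junb (ENSRNOG00000042838), whose product can pair with FOS in place of JUN and is a weaker activator at many JUN targets, passed the test after 7 weeks and not after 3 weeks. Its level was 14.7, 16.0 and 12.0 CPM in control rats, 10.6, 15.5 and 12.7 CPM in IDPN-3wk rats and 34.1, 29.6 and 23.6 CPM in IDPN-7wk rats. The control and IDPN-3wk rats overlapped, and the IDPN-7wk rats were above all 6 of them. Junb rose 2.05-fold between control and IDPN-7wk rats (95% interval 1.46 to 2.86; log2 fold change 1.03, SE 0.217, adjusted p = 0.0202), and had a log2 fold change of -0.14 after 3 weeks (95% interval -0.62 to 0.34, adjusted p = 0.812). Between the IDPN groups the log2 difference was 1.17 (95% interval 0.69 to 1.66, adjusted p = 0.0528 in edgeR and 4.54e-05 in DESeq2). The call at 7 weeks was lost without Control rat 1 (adjusted p = 0.07), Control rat 3 (adjusted p = 0.0677), IDPN-7wk rat 1 (adjusted p = 0.0977) or IDPN-7wk rat 2 (adjusted p = 0.0726), with log2 fold changes between 0.90 and 1.16 whichever library was left out. With the set of libraries with fewer genes detected as a covariate the adjusted p was 0.041. On the log2(CPM + 2) scale the difference from control rats was 0.93 over all libraries and 0.83 within the 6 libraries with more genes detected.

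Jund (ENSRNOG00000019568) encodes the JUN protein that many cells make without a stimulus. Its level was 3.88, 4.35 and 5.32 CPM in control rats, 7.09, 2.93 and 4.34 CPM in IDPN-3wk rats and 5.52, 5.12 and 5.09 CPM in IDPN-7wk rats. The groups overlapped, and the log2 fold changes of 0.08 and 0.21 against control rats did not pass the test (adjusted p = 0.951 and 0.830). The 95% interval at 7 weeks ran from -0.61 to 1.04, which still includes a fold change as large as that of Junb.

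Egr1 (ENSRNOG00000019422) encodes a zinc finger transcription factor induced with FOS by growth factors and synaptic activity. Control rats had 31.3, 46.4 and 30.4 CPM, IDPN-3wk rats 25.8, 29.8 and 34.9 CPM and IDPN-7wk rats 71.2, 46.2 and 52.1 CPM. Control rat 2 was level with the lowest IDPN-7wk rat, so these groups overlapped, whereas every IDPN-7wk rat was above every IDPN-3wk rat. The log2 fold change was -0.26 after 3 weeks (95% interval -0.74 to 0.23, adjusted p = 0.630) and 0.65 after 7 weeks (95% interval 0.16 to 1.14, adjusted p = 0.128). The difference between IDPN-7wk and IDPN-3wk rats was 0.90 (95% interval 0.41 to 1.40, unadjusted p = 0.00209, adjusted p = 0.127). DESeq2 called Egr1 in the comparison with control rats (adjusted p = 0.0479) and in that with IDPN-3wk rats (adjusted p = 0.00634). Without IDPN-7wk rat 1 the edgeR values were 0.45 and 0.70 (adjusted p = 0.461 and 0.449).

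Ier2 (ENSRNOG00000054344) encodes a small nuclear protein induced by serum, and the deposited table types this entry as a pseudogene, so the share of reads from near-identical copies is uncertain. Its level was 19.7, 15.1 and 19.1 CPM in control rats, 18.6, 13.3 and 19.5 CPM in IDPN-3wk rats and 27.4, 20.8 and 21.9 CPM in IDPN-7wk rats. The IDPN-7wk rats were above all others, by a small margin. The log2 fold change at 7 weeks was 0.38 (95% interval -0.09 to 0.84, adjusted p = 0.377) and did not pass the test.

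Nr4a1 (ENSRNOG00000007607), which encodes the orphan nuclear receptor NUR77, did not share this pattern. Control rats had 74.0, 64.4 and 85.9 CPM, IDPN-3wk rats 62.9, 73.7 and 70.2 CPM and IDPN-7wk rats 52.1, 65.8 and 60.4 CPM. The lowest of the 9 values was that of IDPN-7wk rat 1, the rat with the highest Fos, Jun, Junb and Egr1. The log2 fold change at 7 weeks was -0.33 (95% interval -0.64 to -0.02, unadjusted p = 0.0382, adjusted p = 0.225), with overlapping groups. Nr4a1 was the 1 member of 9 with a negative log2 fold change at 7 weeks, and 51.1% of all genes tested had a positive one.

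Dusp1 (ENSRNOG00000003977) encodes a phosphatase that inactivates MAPKs and is itself induced by them. Its level was 33.0, 41.9 and 36.6 CPM in control rats, 33.3, 29.3 and 40.8 CPM in IDPN-3wk rats and 70.5, 32.8 and 32.7 CPM in IDPN-7wk rats. IDPN-7wk rat 1 was above all other rats, and the other two IDPN-7wk rats were narrowly below the lowest control. The log2 fold change at 7 weeks was 0.29 (95% interval -0.35 to 0.92, adjusted p = 0.675), and it was -0.18 without IDPN-7wk rat 1 (adjusted p = 0.817), so that its direction rested on that rat.

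**Figure D2:**
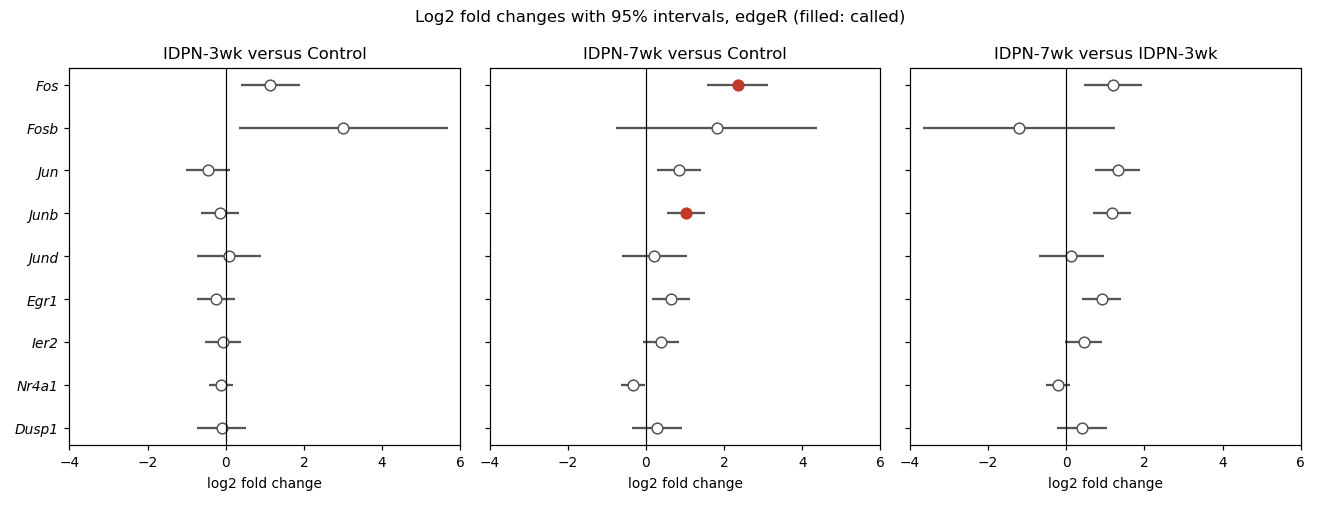
Log2 fold changes of the 9 genes tested in the 3 comparisons, with 95% intervals from the edgeR fit. Filled points passed the thresholds, which were Fos (2.34) and Junb (1.03) in IDPN-7wk versus control rats, and the wide bars of Fosb reflect its low counts.

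A direct test between the IDPN groups, which asks whether the genes differ between these groups, called 0 of 9 members in edgeR, against 0.483% of all genes. An unadjusted p under 0.05 was reached by 4 members, Fos, Jun, Junb and Egr1, all higher in IDPN-7wk rats (13.8% of all genes reached it), and DESeq2 called the same 4, against 3.87% of the genes it tested (1.84% called higher). Jun and Junb were also called by edgeR when no filter was applied (adjusted p = 0.0376 and 0.0409) or when at least 10 counts were required in every library (adjusted p = 0.0302 and 0.0351). With the set of libraries with fewer genes detected as a covariate, or in a fit of the 2 groups alone, edgeR called 0 members. Across the alternative fits the adjusted p reached 0.335 for Jun and Junb, 0.704 for Fos and 0.59 for Egr1. Groups that did not overlap were counted as well. Against control rats, 5 of 9 members (Fos, Fosb, Jun, Junb and Ier2) had all IDPN-7wk rats above all controls, as had 17.2% of all genes tested. After 3 weeks 2 members (Fos and Fosb) were above all controls and Jun was below them, against 8.78% and 10.9% of all genes. Between the IDPN groups 5 members (Fos, Jun, Junb, Egr1 and Ier2) were higher without overlap, against 12.1% of all genes, and Fosb was lower without overlap, against 8.92%. The comparisons with control rats share those 3 controls and are not independent of each other. Per the study's methods, tissue was taken on the last day of exposure. Between the IDPN groups, length of exposure therefore cannot be told apart from time of collection, or from age if exposure began at the same age.

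**Figure D3:**
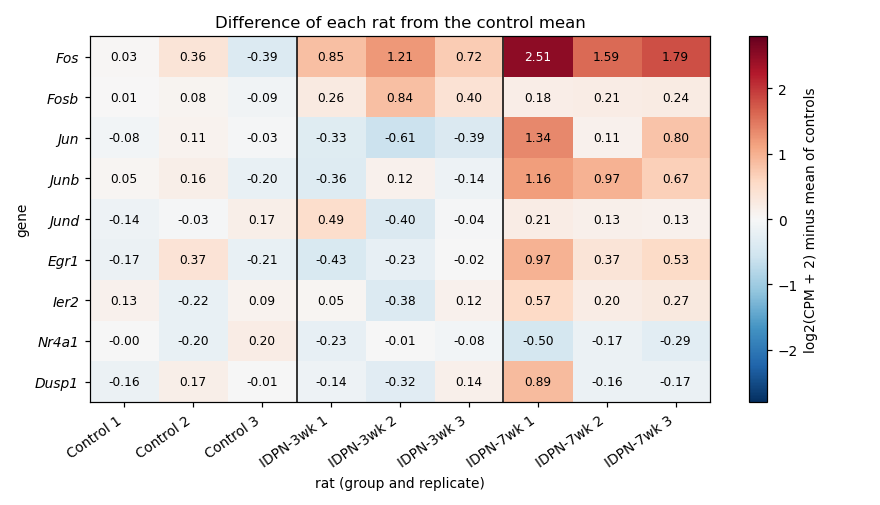
Difference of each rat from the mean of the 3 controls for the 9 genes tested, on the log2(CPM + 2) scale, with rats in columns and genes in rows and the value written in each cell. Fos is positive in all 6 exposed rats (0.72 to 2.51), Jun is negative in the 3 IDPN-3wk rats and positive in the 3 IDPN-7wk rats, and the column of IDPN-7wk rat 1 holds the highest value of 6 genes.

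Single rats differed in how many of these genes they held at the top. IDPN-7wk rat 1 had the highest value of the 9 rats for 6 of the 9 genes tested (Fos, Jun, Junb, Egr1, Ier2 and Dusp1) and the highest of its group for 7. IDPN-7wk rats 2 and 3 share a title code that rat 1 lacks, so this rat and what the code marks cannot be told apart. The other two IDPN-7wk rats had the highest of the 9 values for 0 genes, and Control rat 2 was the highest of the controls for 6. Within the IDPN-7wk group the highest rat exceeded the lowest 2.38 times for Jun, 2.16 times for Dusp1 and 1.98 times for Fos. Among the controls these ratios were 1.14, 1.27 and 2.07. Jund had its widest group at 3 weeks (2.42 times) and its narrowest at 7 weeks (1.08 times). Nr4a1 stayed within 1.33 times in each group.

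The spread between rats of a group was summarised as the SD of log2(CPM + 2) around the group means and set against the other genes tested. It was 0.390 for Dusp1, 0.383 for Fos and 0.369 for Jun, which placed these genes at the 82.5, 81.8 and 80.0 percentiles of 15517 genes. Egr1 (0.285), Jund (0.274), Junb (0.226) and Ier2 (0.221) were between the 47.7 and 64.8 percentiles, and Nr4a1 (0.164) was at the 27.7 percentile. For Fosb the value depended on the pseudocount, being 0.184 with 2 CPM and 0.385 with 0.5 CPM, and with 0.5 CPM the percentiles of Dusp1, Fos and Jun were 68.0, 71.8 and 64.6. Much of this spread came from IDPN-7wk rat 1. Without it, Dusp1 had an SD of 0.179 (33.4 percentile), Jun of 0.242 (53.1 percentile) and Fos of 0.295 (65.6 percentile). Nr4a1 stayed low, at 0.151 (23.9 percentile).

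**Figure D4:**
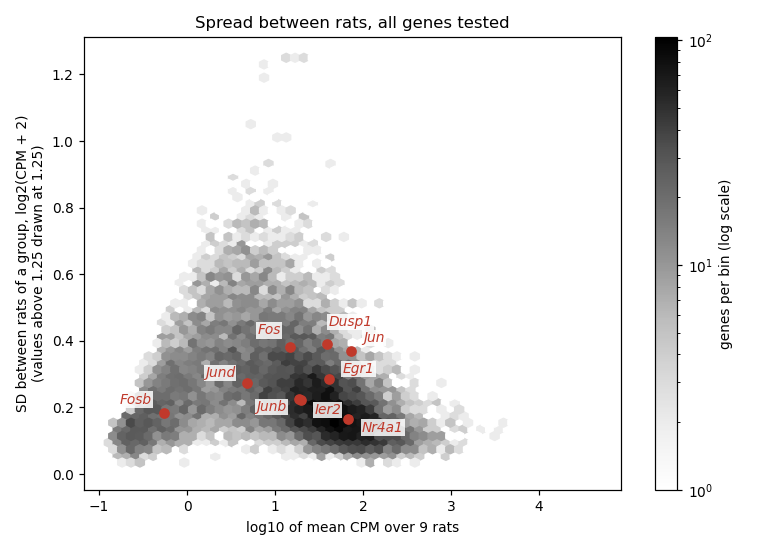
Spread between rats of a group (SD of log2(CPM + 2), vertical axis) against the mean level over 9 rats (log10 of CPM, horizontal axis) for the 15517 genes tested, shaded by the number of genes per bin. The 9 IEGs are marked, with Dusp1, Fos and Jun highest (0.369 to 0.390) and Nr4a1 lowest (0.164).

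The members also differed in whether they moved with each other among rats of the same group. Over 9 libraries with the group means removed, the Pearson correlation of a gene with the mean of the other members was 0.886 for Dusp1, 0.714 for Egr1, 0.700 for Jun and 0.662 for Fos. It was 0.395 for Junb, 0.0891 for Ier2, -0.188 for Fosb, -0.321 for Jund and -0.741 for Nr4a1. Without IDPN-7wk rat 1 the values over 8 libraries were 0.321 for Dusp1, 0.927 for Egr1, 0.0070 for Jun and -0.0336 for Fos. They were then -0.212 for Junb, -0.609 for Ier2, -0.245 for Fosb, -0.629 for Jund and -0.727 for Nr4a1. The correlations of Fos, Jun and Junb thus rested on that rat, while those of Egr1 and Nr4a1 did not. Among 9816 genes outside the set with a mean of at least 10 CPM, those whose deviations were most like the mean deviation of the members included Nedd8, Eif5a, Akap12, Ezr and Parp1, with r between 0.948 and 0.977. Without IDPN-7wk rat 1 their r ran from 0.548 (Ezr) to 0.908 (Nedd8). None of these was called in any of the 3 comparisons by edgeR, with the lowest adjusted p, 0.0838, that of Akap12 at 7 weeks. The points of these correlations share library, depth and normalization, and they are given as a description.

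Other IEGs were examined from a list of 45 symbols, of which 43 were in the table and 40 were tested. After 7 weeks edgeR called 4 higher (Ctgf, Cebpd, Atf3 and Socs3) and 1 lower (Plk2) and did not call 35, while 2.00% of all genes were called higher and 5.13% in either direction. In that comparison DESeq2 called 7 higher and 2 lower, and 14 had an unadjusted p under 0.05 (19.3% of all genes did). After 3 weeks edgeR called 1 higher (Ctgf), against 1.65% of all genes called, and DESeq2 called 2 higher and 1 lower, the latter being Plk2 (adjusted p = 0.00821). Between the IDPN groups edgeR called Ctgf, against 0.483% of all genes, and DESeq2 called 3, among them Atf3 (adjusted p = 0.000764). The median log2 fold change of the 40 genes was 0.20 after 3 weeks and 0.30 after 7 weeks, beside -0.00047 and 0.01 over all genes tested. The other EGR and NR4A family members and Fosl1 were not among those called by edgeR. Egr2, an EGR family member, had 96.2, 95.5 and 73.6 CPM in the control, IDPN-3wk and IDPN-7wk means (adjusted p = 0.993 and 0.628 against control rats), and Egr3, Egr4 and Npas4, an IEG of active neurons, were too low to be tested, with at most 0.297 CPM in any rat.

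Ctgf (ENSRNOG00000015036), which encodes a secreted matricellular protein induced by TGF-beta and YAP signalling, stood out by its size. Its level was 222.8, 140.4 and 193.6 CPM in control rats, 481.3, 469.9 and 672.3 CPM in IDPN-3wk rats and 1582, 983.5 and 1262 CPM in IDPN-7wk rats. As for Fos, the 3 groups did not overlap and were in the order of exposure. Ctgf rose by 1.54 on the log2 scale after 3 weeks (SE 0.219, adjusted p = 0.00908) and by 2.78 after 7 weeks (SE 0.229, adjusted p = 0.00015), and was 1.24 higher in IDPN-7wk than in IDPN-3wk rats (SE 0.217, adjusted p = 0.0434). The last of these calls was kept only without Control rat 2, IDPN-3wk rat 3 or IDPN-7wk rat 2. It was lost without any of the other 6 libraries, with an adjusted p of up to 0.165 and a log2 difference of at least 1.05, as well as with the library set as a covariate (adjusted p = 0.273) and in a fit of the 2 groups alone (adjusted p = 0.0744).

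Atf3, whose product is a stress-induced partner of JUN, had 3.88, 5.95 and 6.58 CPM in control rats, 5.64, 5.99 and 4.27 CPM in IDPN-3wk rats and 16.4, 11.1 and 12.7 CPM in IDPN-7wk rats. Like Junb, it passed the test after 7 weeks (log2 fold change 1.29, SE 0.294, adjusted p = 0.029) but not after 3 weeks (-0.05, adjusted p = 0.967). Cebpd, a transcription factor of the acute phase response, had 26.1, 31.6 and 19.3 CPM in control rats, 32.7, 55.8 and 32.3 CPM in IDPN-3wk rats and 74.7, 59.7 and 74.1 CPM in IDPN-7wk rats (log2 fold change 1.44 at 7 weeks, SE 0.249, adjusted p = 0.00801). The Cebpd call was kept with any library left out. The Atf3 call was lost without Control rat 1 or 2 or without any of the 3 IDPN-7wk rats, with an adjusted p of up to 0.145.

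Socs3, a feedback inhibitor of cytokine receptors that is named here after its values were seen, had 2.40, 2.35 and 0.535 CPM in control rats, 3.84, 4.44 and 4.21 CPM in IDPN-3wk rats and 9.55, 7.07 and 5.98 CPM in IDPN-7wk rats (log2 fold change 2.10 at 7 weeks, SE 0.527, adjusted p = 0.0448). Plk2, a kinase that acts in synapses and at centrioles, fell. Control rats had 33.4, 32.5 and 40.3 CPM of it and IDPN-7wk rats 19.0, 17.0 and 22.6 CPM (log2 fold change -0.86, SE 0.212, adjusted p = 0.0423), and it had 25.9, 15.7 and 18.5 CPM in IDPN-3wk rats. Both calls were close to the threshold. The Socs3 call was kept only without Control rat 3, IDPN-3wk rat 1 or IDPN-3wk rat 2, and the Plk2 call only without IDPN-3wk rat 1 or 2. With one of the other libraries left out the adjusted p reached 0.181 for Socs3 and 0.157 for Plk2, and with the library set as a covariate it was 0.0522 and 0.0824.

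**Figure D5:**
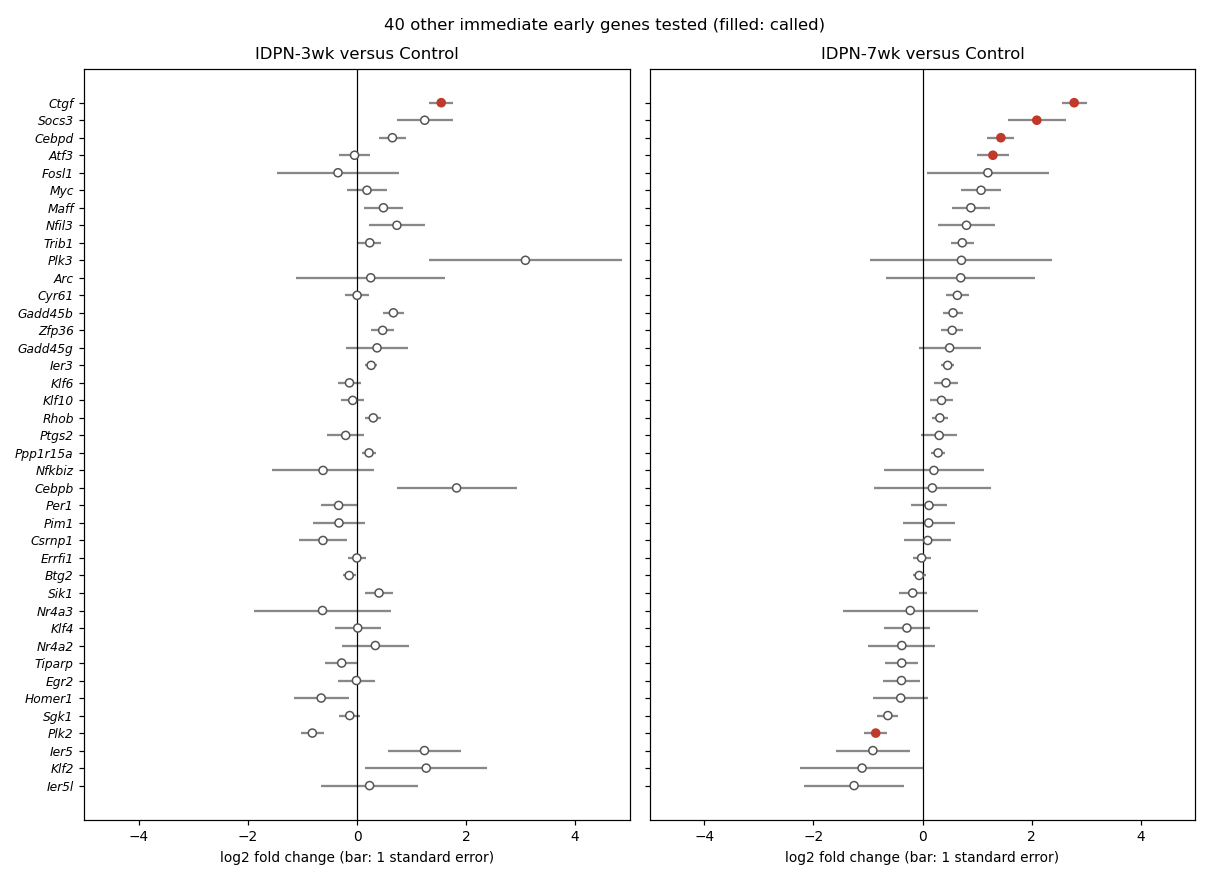
Log2 fold changes of the 40 other IEGs tested, with 1 SE on each side, in IDPN-3wk versus control rats and in IDPN-7wk versus control rats, ordered by the value at 7 weeks. Filled points passed the thresholds, which were Ctgf in both panels (1.54 and 2.78), and Socs3, Cebpd, Atf3 and Plk2 in the panel for 7 weeks.

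Genes that act before and after the IEGs in the pathway were examined as well. A list of MAPKs, kinases acting above or below them, and transcription factors of the SRF and CREB type had 29 entries tested. Map2k3 was among them under both of its identifiers. After 3 weeks 0 were called (8 had an unadjusted p under 0.05 and DESeq2 called 2). After 7 weeks 1 was called, Mapk10, the neuronal JNK, which fell (log2 fold change -1.81, SE 0.468, adjusted p = 0.0497). At 7 weeks 5 had an unadjusted p under 0.05, and DESeq2 called 1 higher and 2 lower. Over all genes the share with such a p was 15.8% after 3 weeks and 19.3% after 7 weeks, and edgeR called 1.65% and 5.13%. The Mapk10 call was kept only without IDPN-3wk rat 1 or 2, and otherwise had an adjusted p of up to 0.205 (0.0597 with the library set as a covariate and 0.0584 without a filter). The medians of this list were -0.01 and 0.01. Of 17 MAPK phosphatases and genes of messenger RNA decay and feedback, the group to which DUSP1 belongs, 0 were called at either time by edgeR and 0 by DESeq2, with 5 of the 17 at an unadjusted p under 0.05 each time (15.8% and 19.3% of all genes). Between the IDPN groups edgeR called 0 of the 17 and DESeq2 called 1, lower. In that comparison 6 had an unadjusted p under 0.05 (13.8% of all genes). Of 12 AP-1 and EGR partners, Atf3 was higher after 7 weeks, as above, and Rxra, a nuclear receptor that pairs with NR4A1, fell at both times. The log2 fold changes of Rxra were -1.27 (SE 0.238, adjusted p = 0.0265) and -1.32 (SE 0.238, adjusted p = 0.00936). The call of Rxra at 3 weeks was kept only without IDPN-3wk rat 3 or IDPN-7wk rat 1 (adjusted p up to 0.101 otherwise), and the call at 7 weeks was lost without IDPN-7wk rat 1 (adjusted p = 0.0510).

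Inducible chaperones, a further class of stress-responsive genes, were examined beside the IEGs. Of 11 tested, Hspb1 was called higher after 7 weeks and 10 were not called, while 2.00% of all genes were called higher. Hspb1, which encodes HSP27, had 158.2, 126.4 and 142.7 CPM in control rats, 169.6, 241.6 and 158.1 CPM in IDPN-3wk rats and 470.5, 278.8 and 321.4 CPM in IDPN-7wk rats (log2 fold change 1.33 at 7 weeks, SE 0.213, adjusted p = 0.0055). The median of the 11 was -0.19 at 7 weeks and 8 were negative. After 3 weeks 0 were called by edgeR or by DESeq2, with 2 at an unadjusted p under 0.05 (15.8% of all genes).

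The cell type markers of the same libraries moved as well. The summed level of 11 HC markers was 2402 to 2914 CPM in the controls, and 1107 to 1455 CPM after 3 weeks and 1151 to 1270 CPM after 7 weeks, with 5 and 8 markers called lower. Ptprq and Otof had the highest control means of the 11 (957.8 and 702.9 CPM) and weigh most in this sum. The median log2 fold change of the 11 was -0.39 after 3 weeks, when 2 were positive, and -1.02 after 7 weeks. The sum of 10 supporting cell markers was 5944 to 6473, 4280 to 5543 and 4215 to 4446 CPM, with 0 and 2 called lower by edgeR (4 had an unadjusted p under 0.05 at 3 weeks, when DESeq2 called 2). The sum of 11 macrophage and leukocyte markers was 83.3 to 135.8 CPM in the controls, and 61.2 to 155.0 CPM after 3 weeks and 245.6 to 319.4 CPM after 7 weeks. All 11 had positive log2 fold changes at 7 weeks. Of these, 1 was called by edgeR (C1qb) and 5 by DESeq2, and 7 had an unadjusted p under 0.05. Between the IDPN groups DESeq2 called 6 higher and edgeR 0, with 9 at an unadjusted p under 0.05. The sum of 5 Schwann cell markers was 9442 to 11880, 7415 to 10060 and 3197 to 6748 CPM, with 2 called lower at 7 weeks by edgeR and all 5 by DESeq2. IDPN-7wk rat 1, with the highest Fos, Jun, Junb, Egr1 and Dusp1, also had the highest macrophage sum (319.4 CPM) and the lowest Schwann cell sum (3197 CPM, against 6641 and 6748 CPM in the other two). It also had the lowest of the 9 sums for supporting cell markers (4215 CPM, against 4342 and 4446 CPM in the other two), endothelial and mural markers (393.5 CPM, against 588.6 and 530.5 CPM) and fibroblast markers (584.6 CPM, against 712.0 and 727.7 CPM). After 7 weeks edgeR called 1 of 9 endothelial and mural markers higher and 1 of 6 fibroblast markers lower, and it called 1 of 5 neuron markers lower at each time. Of the neuron markers, DESeq2 called 1 higher and 2 lower after 3 weeks, when 3 had an unadjusted p under 0.05. After 7 weeks DESeq2 called 1 of them, lower, and 2 had such a p. Over all genes tested, edgeR called 1.65% after 3 weeks and 5.13% after 7 weeks, and DESeq2 5.04% and 8.81%. An unadjusted p under 0.05 was reached by 15.8% and 19.3% of all genes. Between the IDPN groups these 3 shares were 0.483%, 3.87% and 13.8%. For the blood and melanocyte markers 0 were called at either time by edgeR. At 3 weeks 3 entries of blood markers (Hbb and both entries of Hba-a2) had an unadjusted p under 0.05 and DESeq2 called 1. At 7 weeks 1 melanocyte marker had such a p and DESeq2 called 0. The part of these markers in the results for the IEGs was not tested.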

How the data were processed

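RNA from the vestibular epithelia of 9 rats (6 to 11 ng) was sequenced after SMARTseq2 with 8 and 12 cycles of PCR and no molecular identifiers, so the floor of 3 counts covers counting error only. The authors mapped reads to Rnor6.0 with STAR 2.5.3a and deposited a table of RSEM expected counts per gene (version 1.3.0 in the submitters' processing notes), given as whole numbers without normalization. Whether counting used strand is not given in the sources used here. Replicate numbers were assigned here, and no pair of replicates agreed within sampling noise (lowest chi-square per gene 19.2). That these were separate rats is given by the study's methods, so the tests measure the spread between rats.

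Genes were kept by filterByExpr, normalized by TMM and tested with edgeR 4.0.16 (robust quasi-likelihood test, R 4.3.3, limma 3.58.1) with the 9 libraries fitted together by group. Intervals of 95% used the 6 residual degrees of freedom plus those of the prior (median 4.07). For 3 rats per group the smallest two-sided p of an exact permutation test is 0.1. Simulated data with known changes were used to test the code. The members and lists were chosen with earlier results of these data known. Named genes were the members, the called genes of each list (the 4 with the smallest p where more were called) and the 6 genes most like the members, of which 1 is not reported here. Socs3 was added to these. Alternatives were DESeq2 1.42.0, size factors by relative log expression (RLE), fits without a filter or with 10 or more counts in each library, separate fits of 2 groups, CPM without TMM, a pseudocount of 0.5 CPM, the library set as a covariate, and each library left out. Promoters were those of RefSeq. Symbols repeat in 4258 entries, so genes were followed by identifier, and their positions in Rnor6.0 were not analysed here.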

Additional observations from a re-analysis of the deposited data

Results flagged for a closer look

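For 2 genes every IDPN-3wk rat was below the mean of the controls and every IDPN-7wk rat was above it. For Jun the difference between IDPN-7wk and IDPN-3wk rats was 1.32 on the log2 scale (edgeR adjusted p = 0.0627, DESeq2 adjusted p = 9.67e-05). For Egr1 it was 0.90 (edgeR adjusted p = 0.127, DESeq2 adjusted p = 0.00634). This difference passed the threshold in DESeq2 but not in edgeR. Both genes were picked by the same values, which favours a large difference between the IDPN groups. The test therefore cannot decide whether the directions against control rats were opposite. After 3 weeks the log2 fold changes against control rats were -0.46 for Jun and -0.26 for Egr1 (edgeR adjusted p = 0.417 and 0.63). The share of all genes with this pattern is not given here. In the comparisons with control rats, neither gene passed the edgeR threshold at either time. The directions at both times are set against the same 3 controls, and the groups of 3 rats were too small to be examined for outliers.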

How the results depend on the processing

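Of the members, DESeq2 called 1, 4 and 4 in IDPN-3wk versus control, IDPN-7wk versus control and IDPN-7wk versus IDPN-3wk (also 1, 4 and 4 with no fold change threshold, a setting chosen after seeing the data), against 0, 2 and 0 with edgeR. Between the IDPN groups edgeR called 2 without a filter and 2 with at least 10 counts in every library. In that comparison edgeR called 0 with the library set as a covariate and 0 in a fit of those 2 groups alone. With 1 library left out it called 0 to 0, 1 to 2 and 0 to 1. RLE size factors changed no call of a member. Over all genes edgeR called 256, 796 and 75. DESeq2 called 817, 1393 and 584 (1194, 1878 and 788 with no fold change threshold), and the fit of only the 2 groups compared called 118, 1249 and 46. The last comparison had 123 calls with at least 10 counts in every library and 37 with the library set as a covariate. With 1 library left out the counts ran from 75 to 439, from 432 to 969 and from 39 to 445. The causes were not tested.

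Directions turned only for log2 fold changes that were not called. With the library set as a covariate Jund after 3 weeks was -0.0057, and Plk2 between the IDPN groups was 0.12. With 1 library left out, after 3 weeks Jund ran from -0.31 to 0.34, Ier2 from -0.18 to 0.085 and Atf3 from -0.24 to 0.11. Dusp1 ran from -0.18 to 0.48 after 7 weeks. Between the IDPN groups Jund ran from -0.12 to 0.53, Dusp1 from -0.075 to 0.58, Plk2 from -0.19 to 0.19 and Rxra from -0.23 to 0.10. The r of Ezr with the members was 0.954, and 0.548 without IDPN-7wk replicate 1. The SD of Fosb was 0.184 with a pseudocount of 2 CPM and 0.385 with 0.5 CPM. Without IDPN-7wk replicate 1, chosen after seeing the data, the SD of Dusp1 went from 0.390 to 0.179 and that of Jun from 0.369 to 0.242.

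Depth limits Fosb and Fosl2, for which a difference of a few counts cannot be resolved. No paired analysis was possible because the labels give no replicate numbers, those used here were assigned in accession order, and the codes in the sample titles are shared by no control and exposed rat.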
